A study of Mus musculus with 8 samples.

Results

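The MHC class II genes described here were the 7 rows named H2-Aa, H2-Ab1, H2-Eb1, H2-DMa, H2-DMb1, Cd74 and Ciita, taken by symbol from 24421 genes measured by RNA-seq in cultures of bone-forming cells. Calvarial osteoblastic cells, the bone-forming cells of the skull vault, came from newborn C57BL/6 mice that were either wild type (WT) or lacked Def6 (Def6-/-), a regulator of immune cells that the study examined for its role in bone formation. They were released from the bone with collagenase and dispase. Cells of each genotype were profiled before (day 0) and at the end of a culture of 12 days (day 12) in osteogenic medium with ascorbic acid and β-glycerophosphate, so that 8 libraries fell into 4 groups of 2. The labels do not say whether the 2 libraries of a group came from separate animals or cultures or how many pups were pooled, although the study's methods call them biological replicates. The p-values measure the spread between these libraries only. No step that removes blood cells is described for the cultures that were sequenced.

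MHC class II molecules carry peptides taken up from outside the cell to the surface, where CD4+ T cells read them. H2-Aa with H2-Ab1 encode the 2 chains of the I-A molecule, and H2-Eb1 the beta chain of I-E. H2-DMa and H2-DMb1 encode the DM heterodimer, which exchanges peptides in the endosome. Cd74 encodes the invariant chain, which fills the groove until a peptide is loaded, and Ciita encodes the coactivator that switches the class II promoters on. Macrophages, dendritic cells and B cells express these genes at high level, and many other cells, osteoblasts among them, can be induced to do so by IFN-γ.

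The 5 H2 genes lie together on chromosome 17, between 34119693 and 34316674 in GRCm38.p6, which is 5.89 to 6.08 Mb beyond the end of Def6 on the same chromosome. Cd74 and Ciita are on other chromosomes. Class II promoters are known for an X box and a Y box, sequence elements read by RFX and NF-Y with which CIITA works. The 150 bases before the start of 3 members are shown because they place both elements in front of H2-DMb1, the member with the largest limma log2 difference over time among those tested, and of H2-Eb1, which had few reads. The sequences are from RefSeq (GRCm38.p6), 5′ to 3′ in the direction of transcription, and capitals mark matches to AACNGATG (the X box core), GATTGG (the Y box core, CCAATC on the other strand) and TGACGTCA (the cyclic AMP response element).
H2-DMb1: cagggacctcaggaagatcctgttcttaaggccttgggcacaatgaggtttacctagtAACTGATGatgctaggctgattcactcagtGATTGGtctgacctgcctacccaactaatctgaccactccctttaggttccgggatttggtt
H2-Eb1: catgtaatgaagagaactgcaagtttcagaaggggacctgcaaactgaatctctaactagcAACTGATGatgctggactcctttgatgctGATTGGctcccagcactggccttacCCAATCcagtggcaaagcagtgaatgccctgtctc
H2-Aa: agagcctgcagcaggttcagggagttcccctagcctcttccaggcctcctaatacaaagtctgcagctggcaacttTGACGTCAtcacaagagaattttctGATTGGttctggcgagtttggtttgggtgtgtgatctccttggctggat
These windows are chr17:34153041-34153190 (plus strand), chr17:34305717-34305866 (plus strand) and chr17:34287824-34287973 (minus strand). The H2-DMb1 window held the X box core at bases 92 to 85 before the start and the Y box core at bases 62 to 57. In H2-Eb1, the X box core stood at bases 89 to 82, one Y box core at bases 60 to 55 and another, on the opposite strand, at bases 35 to 30. H2-Aa had no X box core in these letters but held the cyclic AMP response element at bases 74 to 67 and the Y box core at bases 49 to 44. Searched on both strands, with no match overlapping another, the X box core was found in 374 of 32851 promoter windows of this length (1.14%), the Y box core in 3595 (10.9%) and the cyclic AMP response element in 447 (1.36%). X and Y box cores stood together in 34 windows (0.103%), those of H2-DMb1, H2-DMb2, H2-Eb1 and H2-Eb2 among them. The letters were set with these windows in view, and a match is not shown to be a bound site. RefSeq entries were matched for 4 of the 7 members, and the fourth, H2-DMa, had none of the letters in either of its windows. Those windows, chr17:34122682-34122831 and chr17:34125368-34125517, lie inside the annotated span of H2-DMa (34119693 to 34139101). They do not cover the start of that span, so they cannot show whether H2-DMa lacks these elements.

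Between 2414856 and 3482837 reads fell on genes in a library, 28.8 to 35.3% of all its reads, so that 1 read was worth 0.287 to 0.427 CPM after rescaling to reads on genes. Def6 itself had 112 to 186 reads in WT libraries and 0 to 2 in Def6-/- libraries. The 9 osteoblast markers counted summed to 56336 to 119471 reads at day 0 and 226806 to 276064 at day 12. The 2 WT libraries at day 0 differed most from each other (chi-square per gene of 31.9 over genes with at least 10 reads in the pair, against 4.28 to 11.8 in the other pairs). The differences over time without one of them are given below. Class II genes were rare in these libraries: the 7 members together had 39 to 53 reads at day 0 and 120 to 191 at day 12. Only 4 of them, H2-DMb1, Cd74, H2-DMa and H2-Ab1, reached a mean of 1 CPM as deposited in any group and entered the test, and H2-Ab1 did so only through day 12. H2-Aa, H2-Eb1 and Ciita did not, and are given by their reads.

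Levels per length placed H2-DMb1 and Cd74 above the other members. Length was the union of all annotated exons of a gene, 1.68 kb for each of these, 3.45 kb for H2-DMa and 3.8 kb for H2-Aa, so that the order depends on it. In normalized CPM per kilobase of exon, the day 12 level of H2-DMb1 was 14.2 ± 0.991 in WT and 11.8 ± 0.555 in Def6-/- cells (SD, n = 2 each). That of Cd74 was 7.32 ± 0.930 and 6.26 ± 1.94 on the same scale. H2-DMa followed with 2.21 ± 0.885 and 2.73 ± 0.182, H2-Ab1 with 1.68 ± 0.162 and 2.26 ± 1.32, and H2-Eb1 with 1.06 ± 0.031 and 1.2 ± 1.1. The lowest levels were those of H2-Aa (0.575 ± 0.279 and 0.672 ± 0.798) and Ciita (0.163 ± 0.018 and 0.109 ± 0.028). Over the 4 libraries of day 12, H2-DMb1 lay apart from Cd74 and Cd74 from H2-DMa, whereas each later neighbor in this order overlapped the next. In normalized CPM not divided by length, H2-DMb1 still lay apart, but Cd74 (8.21 to 13.4) and H2-DMa (5.44 to 9.85) overlapped at day 12. The levels of H2-DMb1 in WT and Def6-/- cells stood at percentiles 80.0 and 76.5 among 16024 genes with a length and a read, and those of H2-Aa at 25.2 and 26.4. For comparison, the class I heavy chain H2-K1 reached 155 ± 33.1 and 114 ± 19.7. At day 0 the order differed: Cd74 was at 3.35 ± 0.576 in WT and 3.32 ± 0.685 in Def6-/- cells, and H2-DMb1 at 2.75 ± 0.569 and 1.98 ± 1.21, with overlapping libraries. H2-DMa shares 360 exon bases (10.4% of its length) with Brd2 and Ciita shares 329 (3.5%) with Dexi, so that their reads may have been dropped or split, since the strand setting of the counting is not given.

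**Figure D1:**
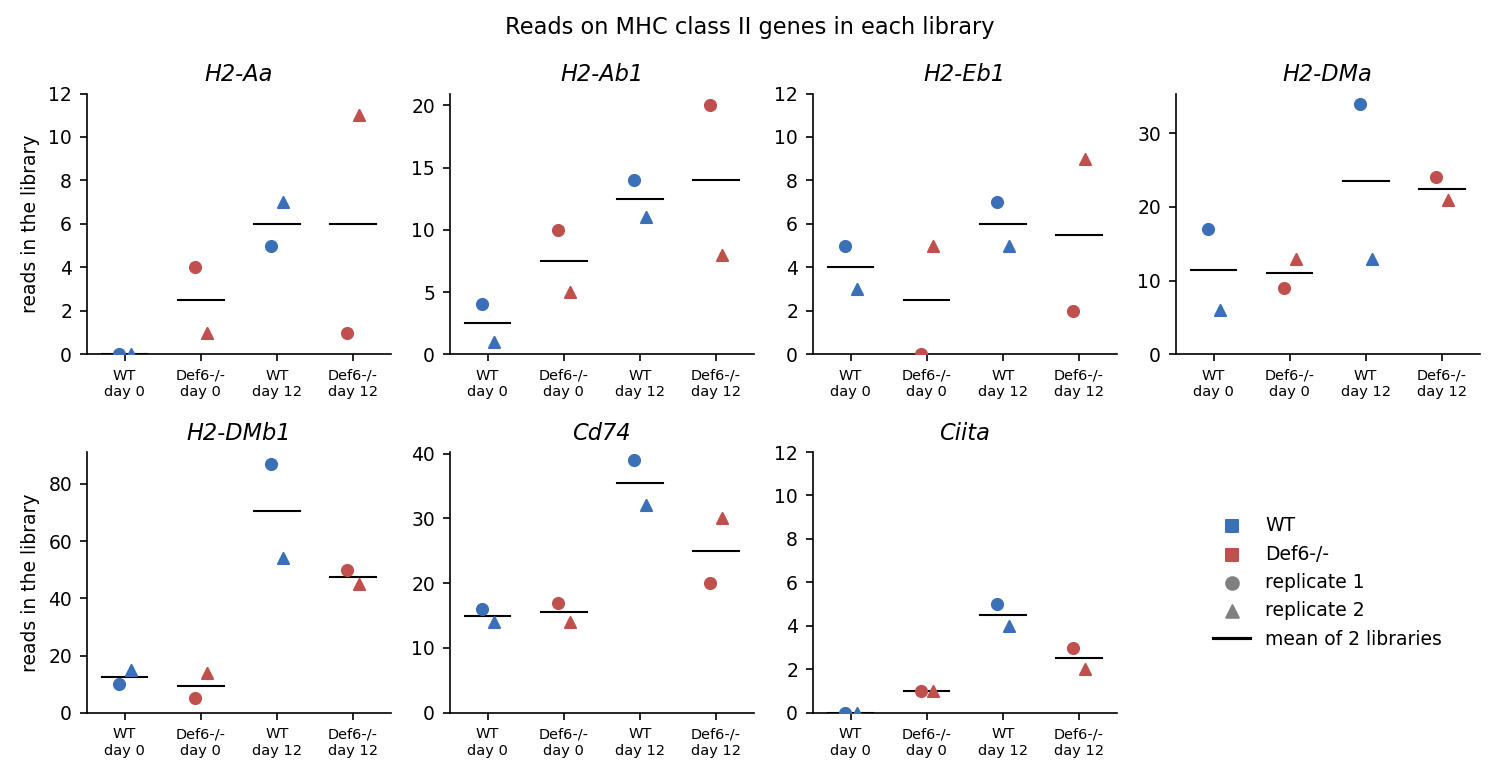
Reads on each of the 7 MHC class II genes in each library (vertical axis, whole reads, a separate scale for each gene) by group (horizontal axis), with circles for replicate 1, triangles for replicate 2 and bars for the mean of 2 libraries. H2-DMb1 rises from 5 to 15 reads at day 0 to 45 to 87 at day 12, while H2-Aa, H2-Eb1 and Ciita stay at or under 11 reads in every library.

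The first comparison asked which class II genes changed over 12 days in osteogenic medium. H2-DMb1 was the member that passed the test, in both genotypes and in the same direction. In WT cells it had 10 and 15 reads at day 0 against 87 and 54 at day 12, and in Def6-/- cells 5 and 14 reads against 50 and 45. All 4 libraries of day 12 were above all 4 of day 0. Within a genotype, day 12 lay wholly above day 0 for 29.3% of all genes in WT and 35.2% in Def6-/- cells. The share over both genotypes together is not given here. In normalized CPM, H2-DMb1 went from 4.62 ± 0.957 to 23.8 ± 1.67 in WT and from 3.32 ± 2.04 to 19.9 ± 0.932 in Def6-/- cells (SD, n = 2 each). On log2(CPM + 1), H2-DMb1 rose by 2.15 in WT cells (SE 0.36, 95% interval 1.33 to 2.97, limma, adjusted p = 0.00416). In Def6-/- cells it rose by 2.36 (SE 0.36, 95% interval 1.54 to 3.18, limma, adjusted p = 0.00266). This was 1 of the 4 members tested in each genotype, where 12.7% of 12348 genes in WT and 12% in Def6-/- cells were called higher. At an unadjusted p under 0.05, limma gave 3 of 4 in each genotype, against 32.5% of all genes in WT and 30.1% in Def6-/- cells. DESeq2 gave 3 in WT and 1 in Def6-/- cells at this level, and limma gave 2 in Def6-/- cells with CPM as deposited or with a pseudocount of 0.1. Without the filter, limma gave 5 of all 7 members in WT cells at this level. In Def6-/- cells it gave 2 of 7, H2-DMb1 and Ciita (unadjusted p = 0.0339 for Ciita). The share of all genes at this level in the fit without the filter is not given here. edgeR called 1 member in each genotype and DESeq2 also 1 in each.

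Cd74, the invariant chain, had similar reads in all 4 libraries of day 0. WT cells gave 16 and 14 reads at day 0 and 39 and 32 at day 12, and Def6-/- cells 17 and 14 reads followed by 20 and 30. In normalized CPM the days did not overlap in either genotype, with 4.77 to 6.40 at day 0 and 8.21 to 13.4 at day 12. Day 12 lay wholly above day 0 for 29.3% of all genes in WT and 35.2% in Def6-/- cells. The log2 difference was 1.01 in WT (SE 0.32, limma, unadjusted p = 0.0127, adjusted p = 0.063) and 0.79 in Def6-/- cells (SE 0.32, limma, adjusted p = 0.14). Neither passed the threshold.

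H2-DMa, the partner chain of H2-DMb1, spread more between libraries. It had 17 and 6 reads in WT cells at day 0 and 34 and 13 at day 12, and the 2 days overlapped in CPM. In Def6-/- cells 9 and 13 reads at day 0 were followed by 24 and 21, without overlap. The log2 differences of 0.76 (SE 0.46, limma, adjusted p = 0.289) and 1.09 (SE 0.46, limma, adjusted p = 0.151) did not pass. H2-DMb1 and H2-DMa thus differed in reads at day 12, with 236 against 92 over the 4 libraries, although they had 44 against 45 at day 0. H2-DMb1 has a near-identical copy in H2-DMb2, which was given 1 read in all 8 libraries, so reads of the 2 genes may have been split or dropped in counting.

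The I-A chains were low throughout. H2-Ab1 had 4 and 1 reads in WT and 10 and 5 in Def6-/- cells at day 0, then 14 and 11 in WT and 20 and 8 in Def6-/- cells at day 12. Its WT libraries did not overlap between days and its Def6-/- libraries did. The log2 difference was 1.51 in WT (SE 0.50, limma, adjusted p = 0.0718) and 0.83 in Def6-/- cells (SE 0.50, limma, adjusted p = 0.315). H2-Aa had 0 reads in both WT libraries at day 0 and 5 and 7 at day 12, which is at least 3.65-fold higher against a floor of 3 reads over the group. In Def6-/- cells it had 4 and 1 reads at day 0 and 1 and 11 at day 12, with overlap (2.81-fold, 95% counting interval 0.922 to 10.2). The counting intervals cover counting error only, not the spread between cultures.

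H2-Eb1, the I-E beta chain, showed no difference that its reads could resolve. WT cells had 5 and 3 reads at day 0 and 7 and 5 at day 12, and Def6-/- cells 0 and 5 reads followed by 2 and 9. Over both genotypes the ratio of day 12 to day 0 was 1.82 (95% counting interval 0.884 to 3.91). H2-Ea, the alpha chain of I-E, which C57BL/6 mice do not express, was at 0 reads in all 8 libraries under its pseudogene symbol H2-Ea-ps. The accessory chains H2-Oa and H2-Ob, which make the inhibitor of DM, and H2-Eb2 were also at 0 reads in all 8, which allows up to 3 reads in a library.

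Ciita, the coactivator, had 0 reads in both WT libraries at day 0, 1 and 1 in Def6-/- cells at day 0, 5 and 4 in WT at day 12 and 3 and 2 in Def6-/- cells at day 12. The 4 libraries of day 12 lay above the 4 of day 0, by 2 to 5 reads against 0 to 1. The share of all genes separated in this way is not given here. In WT cells Ciita was at least 2.74-fold higher at day 12 against 3 reads over the group. Over both genotypes, 14 reads against 2 gave a ratio of 7.20 (95% counting interval 1.65 to 65.3). Without the filter on low values, where 16652 genes were tested, Ciita passed in WT cells (log2 difference 1.35, limma, adjusted p = 0.00639) but not in Def6-/- cells (0.58, limma, adjusted p = 0.154), and the test of the difference between these changes had an unadjusted p of 0.0443 and an adjusted p of 1 (limma). That WT call rests on 9 reads against 0. In the same fit all 7 members had a positive difference in both genotypes, where 54.7% of all genes in WT and 51.3% in Def6-/- cells did. The median of the members was 1.35 in WT cells, or 1.46 with H2-Aa and Ciita at their lower bounds, and 0.83 in Def6-/- cells, against 0.01 and 0.02 for all genes.

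Leaving out 1 of the WT libraries of day 0 changed the size of these differences. Without the first, the log2 differences in WT cells were 1.97 for H2-Ab1, 1.42 for H2-DMa, 1.16 for Cd74 and 1.975 for H2-DMb1. Without the second in place of the first, they were 1.04 for H2-Ab1, 0.11 for H2-DMa, 0.86 for Cd74 and 2.324 for H2-DMb1. Each of these fits leaves 1 library in a group, and the share of all genes called in them is not given, so no calls are counted. Without either WT library of day 0, whose spread enters the common estimate, the difference of H2-DMa in Def6-/- cells stayed at 1.09.

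**Figure D2:**
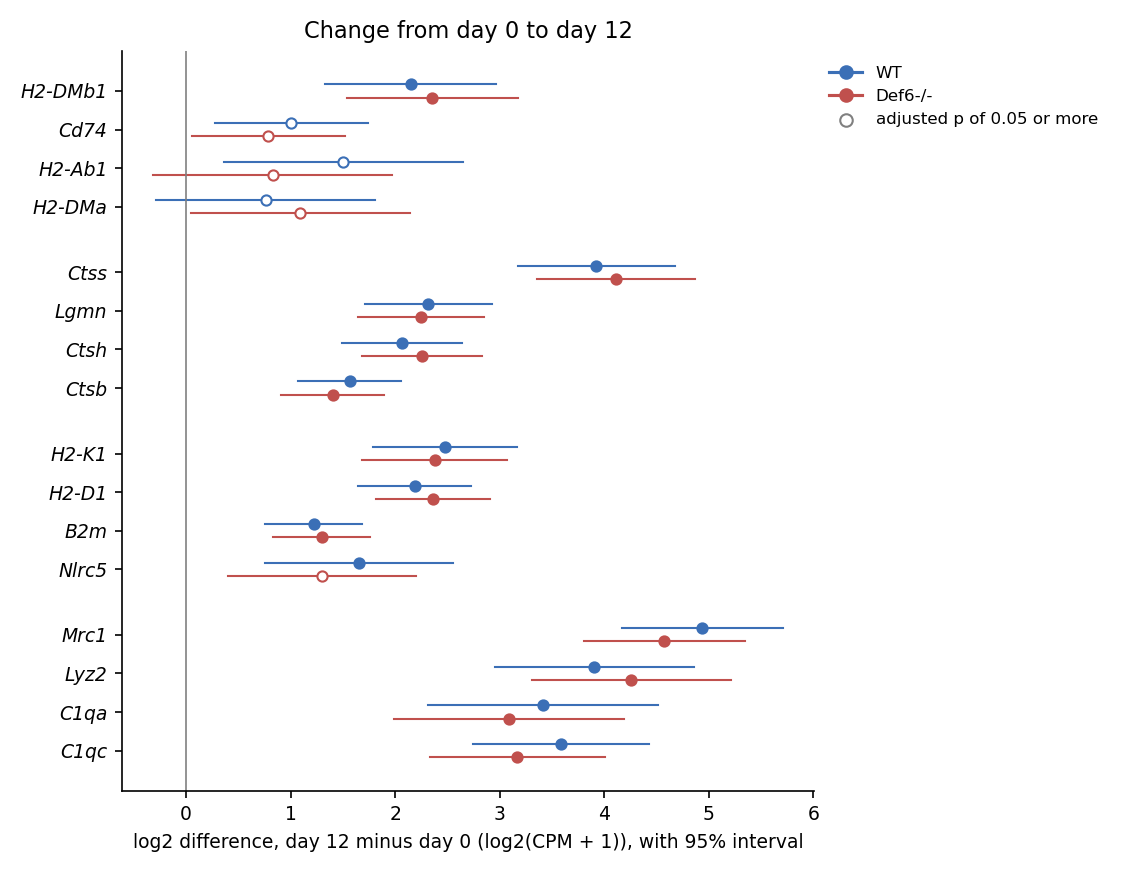
Log2 difference between day 12 and day 0 (horizontal axis, log2(CPM + 1)) with its 95% interval from limma for the 4 tested class II genes and for genes of peptide loading, class I and macrophages (vertical axis), in WT (blue) and Def6-/- cells (red); filled points have an adjusted p under 0.05. H2-DMb1 is filled in both genotypes at 2.15 and 2.36, the other 3 class II genes are open, and the 4 macrophage genes shown lie at 3.09 to 4.94, within the 1.32 to 4.94 of the 14 markers with whole reads.

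The second comparison asked whether the genotypes differed. None of the 4 tested class II members was called at day 12, at day 0 or for the difference between genotypes in the change over time, by limma, edgeR or DESeq2, and none of the 4 tested members had an unadjusted p under 0.05 by any of the 3 (Ciita, which entered only without the filter, is given above). The background was as low, with 0.0081% of genes called by limma at day 12 and at day 0 (1 gene each time) and 0% for the difference in change, and 1.4%, 2.3% and 1.12% at an unadjusted p under 0.05. At day 12 the log2 difference of Def6-/- from WT cells was -0.25 for H2-DMb1 (95% interval -1.07 to 0.57), whose Def6-/- libraries lay below the WT libraries, 19.2 and 20.5 against at least 22.6 normalized CPM. Such a separation was found for 15.9% of all genes, and also for Ciita, which had too few reads to test. Cd74 differed by -0.23 (95% interval -0.97 to 0.50), H2-Ab1 by 0.27 (95% interval -0.88 to 1.41) and H2-DMa by 0.32 (95% interval -0.73 to 1.37), all with overlapping libraries. By reads alone, the ratio of Def6-/- to WT cells was 0.828 for H2-DMb1 (95% counting interval 0.632 to 1.08) and 0.866 for Cd74 (0.590 to 1.26). It was 1.23 for H2-Aa (0.505 to 2.99), 1.13 for H2-Eb1 (0.450 to 2.79) and 0.683 for Ciita (0.180 to 2.27).

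At day 0, the genotypes did not overlap for H2-Ab1 among the tested members, with 1.58 and 0.353 normalized CPM in WT and 3.76 and 1.70 in Def6-/- cells. The log2 difference of 0.94 (95% interval -0.20 to 2.08, limma, adjusted p = 0.908) did not pass, and 10.9% of all genes were separated in this direction. H2-Aa (0 and 0 reads in WT, 4 and 1 in Def6-/- cells) and Ciita (0 and 0 against 1 and 1) were separated in the same way but were too low to test. H2-DMb1 differed by -0.45 (95% interval -1.27 to 0.37), Cd74 by -0.01 (95% interval -0.75 to 0.72) and H2-DMa by -0.01 (95% interval -1.06 to 1.04). With CPM as deposited, which moved the median of all genes from -0.02 to 0.10, Cd74 and H2-DMa turned to 0.09 and 0.07. The change over time differed between genotypes by 0.21 for H2-DMb1 (95% interval -0.95 to 1.37), -0.22 for Cd74 (-1.26 to 0.82), -0.68 for H2-Ab1 (-2.29 to 0.94) and 0.33 for H2-DMa (-1.15 to 1.81).

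**Figure D3:**
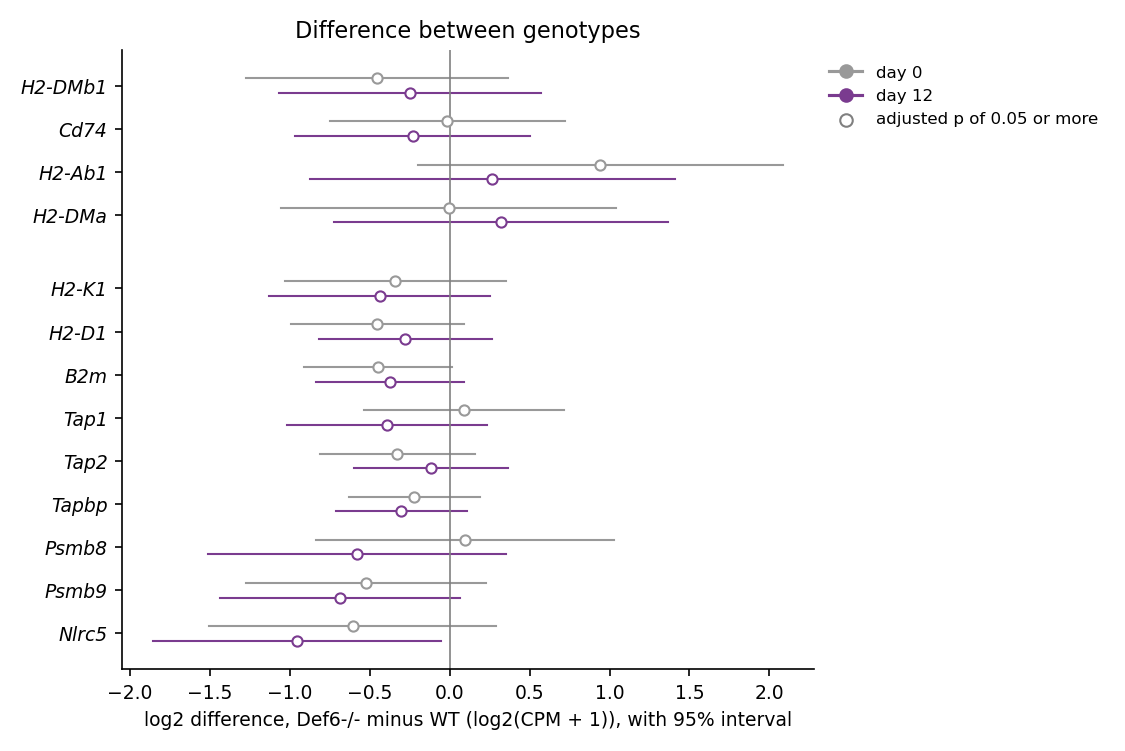
Log2 difference between Def6-/- and WT cells (horizontal axis, log2(CPM + 1)) with its 95% interval from limma for the 4 tested class II genes and 9 genes of class I presentation (vertical axis), at day 0 (grey) and day 12 (purple); open points have an adjusted p of 0.05 or more. No point is filled, and each class II interval spans 0.

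Genes of the class II pathway around the members were split by role. None of 7 transcription factors of class II promoters passed the test over time in either genotype. Rfx5, an RFX subunit, differed by 0.39 in WT and 0.47 in Def6-/- cells on the log2 scale, Rfxap by 0.11 and 0.19, and Rfxank by -0.39 and -0.37. Of 12 genes of peptide loading and turnover, 7 rose and 1 fell in each genotype by limma. Of all genes, 12.7% were called higher and 5.63% lower in WT cells, and 12% and 4.79% in Def6-/- cells. March1, among the 12, entered the test only through day 12. Ctss, the cathepsin that trims the invariant chain, rose by 3.92 in WT and 4.11 in Def6-/- cells (SE 0.33). Lgmn, an endosomal protease, rose by 2.32 and 2.25 (SE 0.27), and Ctsh, which trims peptides, by 2.07 and 2.26 (SE 0.25). Cd44, a partner of the invariant chain at the cell surface, was the gene that fell, by 1.56 and 1.60 on the log2 scale (SE 0.20). The median of the 12 was 1.17 in WT and 1.08 in Def6-/- cells, against -0.001 and 0.01 for all genes tested. Cathepsins also serve protein breakdown outside class II presentation.

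Ifng, which encodes the known inducer of Ciita, was at 0 reads in all 8 libraries. Irf1, a transcription factor induced by interferon that acts on Ciita, rose by 0.86 in WT cells (SE 0.24, limma, adjusted p = 0.0402) and differed by 0.33 in Def6-/- cells (limma, adjusted p = 0.415), and the difference between these changes was -0.53 (limma, adjusted p = 1). Of 5 genes of T cell contact, 3 were tested, and Cd86 and Cd274 entered the test only through day 12, where they were higher. Cd86, a costimulatory ligand, had 1 and 0 reads in WT and 0 and 1 in Def6-/- cells at day 0 and 10 and 10 in WT and 7 and 6 in Def6-/- cells at day 12, and rose by 1.92 in WT and 1.68 in Def6-/- cells (limma, adjusted p = 0.0114 and 0.0214). Cd274, an inhibitory ligand with 1 to 5 reads a library at day 0 and 7 to 20 at day 12, rose by 1.74 in WT cells (limma, adjusted p = 0.0192) and differed by 0.98 in Def6-/- cells (limma, adjusted p = 0.146), a difference in change of -0.76 (limma, adjusted p = 1). DESeq2 lost the calls of Irf1 in WT (adjusted p = 0.0826), Cd86 in WT and Def6-/- cells (adjusted p = 0.0778 and 0.133) and Cd274 in WT cells (adjusted p = 0.0617).

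The class I pathway, which presents peptides from inside the cell, changed over the same days with many more reads. All 9 class I genes in WT and 7 of 9 in Def6-/- cells rose, with medians of 1.67 and 1.59, where 12.7% and 12% of all genes were called higher. Psmb9, among the 9, entered the test only through day 12. H2-K1 rose by 2.48 and 2.38 (SE 0.30) and B2m, the light chain of class I, by 1.22 and 1.30 (SE 0.20). Nlrc5, which is to class I promoters what Ciita is to class II, rose by 1.65 in WT cells (limma, adjusted p = 0.021) and differed by 1.30 in Def6-/- cells (limma, adjusted p = 0.0551). At day 12 all 9 had a negative difference between Def6-/- and WT cells (median -0.39), with none called by limma, edgeR or DESeq2. At an unadjusted p under 0.05, limma and edgeR gave 1 of them, Nlrc5 (-0.96, limma, adjusted p = 1), and DESeq2 0. The class II members were divided in sign at day 12, with 2 positive and 2 negative. For every 1000 reads on class I genes there were 22.0 to 33.4 reads on the 7 class II genes at day 0 and 22.4 to 34.2 at day 12, so that the ratio overlapped between days.

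Cells that carry class II at high level were looked for by their markers. Of 18 macrophage markers, 14 had values that were whole reads in all libraries, and their summed normalized CPM was 207 to 435 at day 0 and 3294 to 6583 at day 12. All 14 rose in WT and 13 in Def6-/- cells by limma, with medians of 3.43 and 3.32, and none of the 14 was at 0 throughout. Of all genes, 12.7% in WT and 12% in Def6-/- cells were called higher. Aif1, among the 14, entered the test only through WT cells at day 12. The other 4 markers, whose deposited values are not whole reads in every library and may not be on a common scale, did not show this: Csf1r differed by -0.72 in WT and -0.86 in Def6-/- cells, Ptprc by 0.98 and 0.22 and Itgam by -0.11 and 0.61, none called by limma, and Adgre1 was too low to test. Lyz2, a lysozyme of myeloid cells, rose by 3.91 and 4.26, and Mrc1, the mannose receptor, by 4.94 and 4.58. At day 12 all 14 had a negative difference between Def6-/- and WT cells, of -0.68 to -0.10, none called. In these bulk libraries fewer cells of a type and less RNA per cell cannot be told apart. The 14 macrophage markers and, without the filter on low values, the 7 class II genes all had positive differences over time in both genotypes. The part of macrophages in the class II change was not tested. Among 9 dendritic cell markers, Flt3, Clec9a, Siglech and Cd209a were at 0 in all 8 libraries, and the list summed to 6 to 10 reads at day 0 and 21 to 53 at day 12. Most of the latter was Itgax, which macrophages also express, with 27 and 26 reads in WT and 15 and 26 in Def6-/- cells at day 12. Of 7 B cell markers, 5 were at 0 in all 8 libraries and the sum never passed 1 read in a library. The T cell markers Cd3e, Cd3d, Cd3g and Cd8a were at 0 in all 8, and Lck had 0 to 4 reads a library. Cd4 was at 0 in every library of day 0 and had 35 and 6 reads in WT and 5 and 11 in Def6-/- cells at day 12. It was the 1 T cell marker tested, entered only through day 12, and was called higher by limma in WT (2.64) and Def6-/- cells (2.06). edgeR called it in WT cells only.

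Class II and macrophage marker reads were both higher at day 12, by unlike amounts, and the cause of this was not tested. The 7 class II genes summed to 13.8 to 20.5 normalized CPM at day 0 and 49.3 to 54.8 at day 12. For every 1000 reads on the 14 macrophage markers there were thus 47.1 and 53.8 class II reads in WT and 83.8 and 56.6 in Def6-/- cells at day 0. At day 12 the ratio was 8.33 and 16.0 in WT and 12.1 and 14.7 in Def6-/- cells, and the days did not overlap. Lyz2 had the most reads of the 14 markers in each library. It gave 624 of 1103 marker reads in the first WT library of day 0 and 14106 of 22935 in that of day 12, so the marker sum and the ratio lean on this gene. Without H2-DMb1 the ratio was 33.1 to 74.7 at day 0 and 4.53 to 9.46 at day 12. For H2-DMb1 alone it was 9.07 to 20.7 and 3.79 to 6.87, also without overlap. Ctss had a ratio of 47.4 to 56.2 at day 0 and 53.1 to 73.1 at day 12 on the same scale, with overlapping libraries. Within day 12, the first WT library had the highest macrophage sum (6583 CPM, against 3294 to 4083 in the other 3), and its class II sum was 54.8 CPM, against 49.3 to 53.8 in the others.

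**Figure D4:**
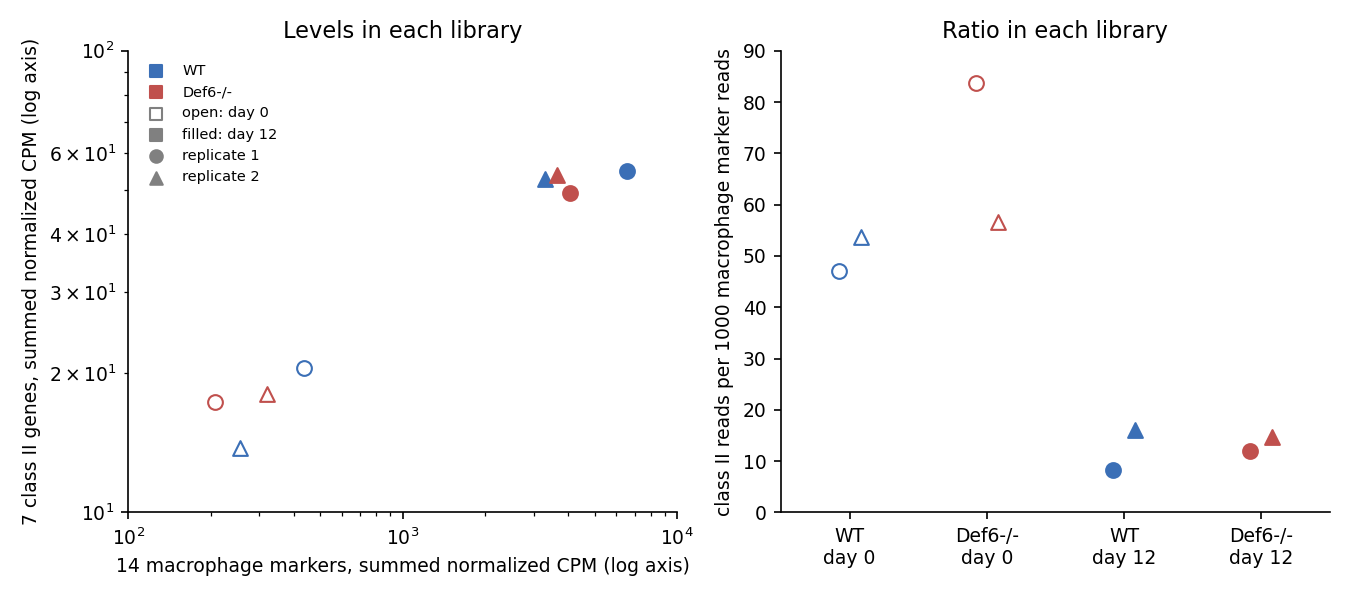
Left, summed normalized CPM of the 7 class II genes (vertical log axis) against that of 14 macrophage markers (horizontal log axis), 1 point per library; right, class II reads per 1000 macrophage marker reads (vertical axis, linear from 0) by group. Blue is WT and red Def6-/-, open points are day 0 and filled points day 12, circles replicate 1 and triangles replicate 2; the ratio lies at 47.1 to 83.8 at day 0 and 8.33 to 16.0 at day 12.

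The genes whose profile over the 8 libraries was closest to the mean of the 4 tested members, by root mean square distance of centered log2 values, were Pltp (0.105), 3110062M04Rik (0.111), St6galnac6 (0.113), Ctsz (0.116) and Gstm1 (0.123), with Rnase4, Rnf130, Uaca and Enho (0.130 to 0.134) also among the nearest 10. Ctsz, a lysosomal cathepsin, is in the peptide loading list and had 447 to 626 reads at day 0 and 1222 to 2083 at day 12. No gene of the macrophage list was among these 10. The distance counts the size of a change as well as its shape. Over time the medians were 3.43 in WT and 3.32 in Def6-/- cells for the 14 macrophage markers, against 1.26 and 0.96 for the 4 tested members. The absence of these markers therefore cannot show whether their shape was alike.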

How the data were processed

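RNA for the 8 libraries was poly-A selected and sequenced by the authors. Per the labels and methods, fastp, HISAT2 (genome build mm10), HTSeq and edgeR were used to trim, align, count and scale the reads. The authors deposited the result as CPM, in which the scaling total includes reads outside genes too. Versions, annotation and strand setting are not given in the sources used here. Each positive value was divided by what 1 read is worth, and 99.957% came out whole within 0.01 reads. The exceptions, 49 values of 9 genes, include 4 macrophage markers (Ptprc, Csf1r, Adgre1 and Itgam), which were left out of sums. CPM were rescaled to the reads on genes and by TMM factors (normalized CPM), a filter required a group mean of 1 CPM or more as deposited (12348 genes passed), and limma 3.58.1 (trend) was fitted to log2(CPM + 1) over 4 group means in R 4.3.3, two-sided, with Benjamini-Hochberg adjustment over all genes tested and a call under 0.05. edgeR 4.0.16 and DESeq2 1.42.0 on recovered reads, CPM as deposited, other pseudocounts and filters, fewer groups, a replicate term and each library left out were the alternatives. On simulated data for the comparison at day 12 (12348 genes), 93% of 4-fold changes and 21% of 2-fold changes were called. These shares are over genes of all levels. They may not hold for genes with as few reads as the tested members, which had 8 to 87 in a library at day 12.

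The members and the gene lists were chosen with earlier results of these data known. The genes named are the 7 members, chains and regulators of class II, those with the smallest p in each list (at most 4) and the 10 of nearest profile. Some genes that the rule names are not reported here. Lyz2, Itgax and the genes plotted beside the members were picked after values were seen. Exon lengths and overlaps are from GENCODE M21 (95.7% of genes matched), promoters from RefSeq. Read ratios carry exact 95% counting intervals.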

Additional observations from a re-analysis of the deposited data

How the results depend on the processing

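H2-DMb1 remained called in both genotypes under all 16 alternatives, by 1.78 to 2.36 on the log2 scale in WT (adjusted p 0.000132 to 0.0475) and by 1.84 to 2.86 in Def6-/- cells (adjusted p 9.34e-05 to 0.0322). The number of members called over time in WT cells was 2 without the filter on low values, where Ciita was added, and 1 to 4 when each library was left out. In Def6-/- cells it was 2 with only the groups compared in the fit, where H2-DMa was added (1.09, limma, adjusted p = 0.027), and 1 to 2 when each library was left out. Across these leave-outs the difference over time ranged in WT cells from 1.04 to 1.97 for H2-Ab1, from 0.11 to 1.42 for H2-DMa and from 0.86 to 1.16 for Cd74, and in Def6-/- cells from 0.30 to 1.36, from 0.94 to 1.25 and from 0.50 to 1.08. With the replicate number as a block, 2 members were called in WT cells, H2-Ab1 being added (1.51, limma, adjusted p = 0.0337), and no other count of called members moved. With this block, H2-Ab1 had an unadjusted p of 0.0499 between genotypes at day 0 (limma, adjusted p = 0.853). The labels do not say what the number marks, and the deviations of same-numbered libraries correlated at 0.037 at day 12, 0.327 at day 0, 0.088 in WT and 0.152 in Def6-/- cells. No genotype comparison called a member under any alternative run, while several differences near 0 changed sign, none of them called. At day 0, H2-DMa turned to 0.070 with CPM as deposited and to 0.031 with a pseudocount of 0.1, and Cd74 to 0.086 with CPM as deposited. With each library left out, the genotype difference at day 0 ranged from -0.66 to 0.645 for H2-DMa, from -0.193 to 0.165 for Cd74 and from -0.954 to 0.047 for H2-DMb1. At day 12 it ranged from -0.265 to 0.796 for H2-Ab1, from -0.049 to 0.691 for H2-DMa and from -0.525 to 0.059 for Cd74. The difference in change ranged from -0.324 to 0.981 for H2-DMa, from -0.295 to 0.707 for H2-DMb1 and from -0.511 to 0.073 for Cd74. The cause of these shifts was not tested. A fit of only the groups compared was not run for the difference in change, which uses all 4 groups. Members with fewer than about 10 reads in a library are limited by counting error.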
